A study of Mus musculus with 8 samples.

Results

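The mitochondrial ribosomal proteins are the protein parts of the ribosome that works inside mitochondria. They were chosen here by symbol: every gene named Mrpl or Mrps followed by a digit, pseudogenes left out, that has a row of its own on the array. This gave 71 of the 22180 genes tested, 43 with a large subunit (Mrpl) symbol and 28 with a small subunit (Mrps) symbol. The reference annotation lists 78 such protein-coding symbols, and Mrpl30, Mrpl33, Mrpl41, Mrpl43, Mrpl44, Mrpl53 and Mrps6 had no row naming them alone, so they were not analysed here. No filter on low signal was applied, so every one of the 71 was tested.

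The samples were whole pancreas from C57 BL6 mice, as total RNA on a whole-transcript expression array. All mice, controls included, had received tamoxifen by intraperitoneal injection, 3 mg per 40 g body weight, and RNA was collected on day 6. The LmnaWT group (WT below) and the LmnaKO group (KO below) had 4 arrays each, from 3 males and 1 female, the female being replicate 4 in both. The series is described as ablation of lamin A/C, the nuclear lamina proteins encoded by Lmna, in pancreatic acinar cells, the enzyme-secreting cells of the gland. The labels used here give neither the driver of the recombinase nor the age of the mice, and whether the arrays of a group are separate animals is not stated, so the p-values below measure the spread between these arrays, which may be technical. The comparison asks how the pancreas differed in expression between the genotypes on day 6.

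Mitochondria carry a small genome that encodes a few core subunits of the respiratory chain and ATP synthase. Those messages are translated by a ribosome whose RNAs come from the mitochondrial genome and whose proteins are all encoded in the nucleus, made in the cytosol and imported. Its small subunit decodes the message, its large subunit joins the amino acids, and many of its proteins have no counterpart in bacterial ribosomes. Pancreatic acinar cells use much ATP for making and packing digestive enzymes.

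Lmna itself was 2.54, 3.13, 2.67 and 2.88 in WT and 2.33, 2.58, 2.73 and 2.61 in KO, a change of -0.24 ± 0.15 (limma adjusted p = 0.264). Its groups overlapped, and where its probes lie relative to the deleted part is not known here, so it does not check the labels. Acinar markers were high in every array and lower in KO, with 4 of 7 called and a list mean of 10.43 to 10.49 in WT and 9.45 to 9.72 in KO. The 4 called, Prss2, Bhlha15, Rbpjl and Amy2b, changed by -0.89 to -1.89 log2 units. Cpa1, Cela1 and Ctrb1 changed by -0.13, -0.20 and -0.06 without passing. Macrophage markers were higher in KO, with 3 of 8 called (all 8 with the replicate block) and a list mean of 3.66 to 5.57 in WT and 5.22 to 6.90 in KO. Of 4 duct markers Krt19 was called higher (1.13 log2 units). Krt7, Sox9 and Cftr changed by 0.34, -0.47 and -0.08 without passing. At an unadjusted p under 0.05 in limma, 2 duct markers were higher and 1 lower. No islet, neutrophil, stellate, endothelial, lymphocyte or adipocyte marker was called in limma, and 3 stellate markers were higher and 1 endothelial marker lower at an unadjusted p under 0.05. With the replicate block 4 of 7 stellate markers were called higher. Stellate means ran from 4.67 to 6.07 in WT and 5.02 to 6.98 in KO. In whole pancreas, fewer cells of a type and less RNA per cell cannot be told apart, and the part of these markers in the members' changes was not tested.

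In the values as deposited, the genes of the mitochondrial ribosome mostly had higher signals in KO than in WT. The difference was near 0 once the distributions of the arrays were matched (median 0.02 log2 units with a second quantile normalization, or 0.08 with cyclic loess, both described further on). It was not when each array was only centred on its median (0.45, with 25 members called higher). Those were 35.2% of the members, beside 16.4% of all genes and 33.2% of other genes of like signal. As deposited, the change was positive for 59 of 71 members and negative for 12, with a median of 0.36 log2 units, where the median over all genes was -0.06. In the limma fit over all genes, with Benjamini-Hochberg adjusted p under 0.05, 23 members were called higher (32.4%) and 1, Mrpl27, was called lower (1.41%). Over all genes tested 14.6% were called higher and 6.99% lower. The called rises ran from 0.50 for Mrps33 to 1.42 for Mrpl32, and Mrpl32 was the only member whose change reached 1 log2 unit, which is 2-fold.

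The share of genes called higher rose with signal up to a signal of 6, and most members lie in the part where it was high. Mean signals of the members ran from 1.57 for Mrpl27 to 6.59 for Mrps15, with 60 of 71 between 3 and 6, where the median over all genes was 2.54. Among genes other than the members, 0.557% were called higher at signals of 1 to 2 log2 units, 5.08% at 2 to 3, 22.7% at 3 to 4, 36.7% at 4 to 5, 39.8% at 5 to 6 and 34.3% at 6 to 7. Weighted to the members' own bands, 30.1% of the other genes were called higher and 4.69% lower, and 73.7% had a positive change against 83.1% of the members. The members' 32.4% called higher therefore lay near the share of other genes of like signal. Taking from each member the median change of the other genes in its band left a median of 0.07 log2 units, with 38 of 71 members above their band's median.

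**Figure D1:**
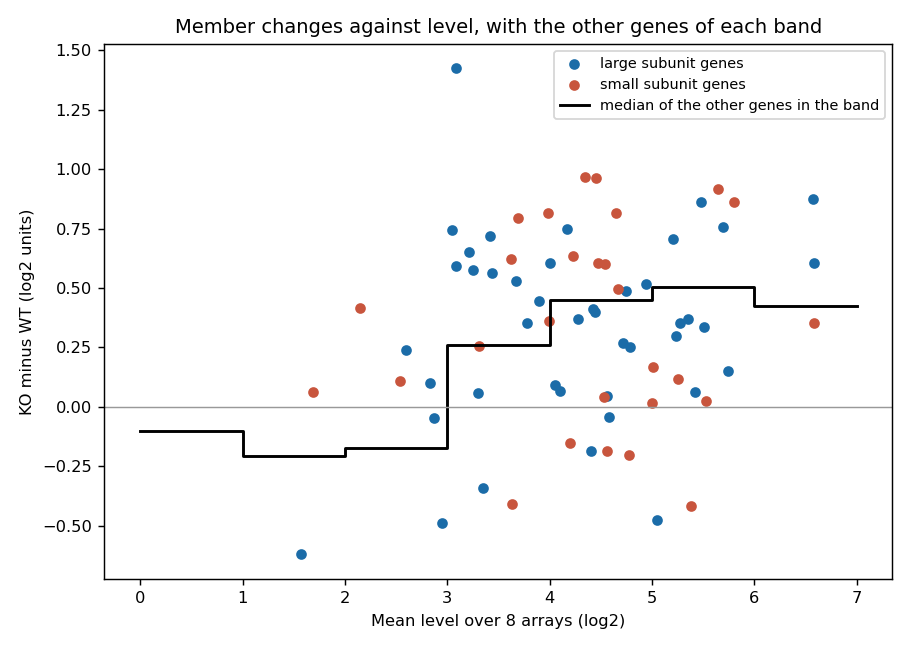
Change of each member (KO minus WT, log2 units, vertical axis) against its mean signal over 8 arrays (log2, horizontal axis), coloured by subunit, with a step line for the median change of the other genes in each band of 1 log2 unit. The line is below 0 under a signal of 3 and between 0.26 and 0.51 from 3 to 7, and 38 of 71 members lie above it.

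All 4 KO arrays lay above all 4 WT arrays for 17 members (23.9%) and below for 1, Mrpl27. Over all genes 15.3% were separated upwards and 12.1% downwards, and the share of other genes weighted to the members' bands was 30.8% upwards; no difference between these shares was tested. Of the 23 members called higher, 14 were separated in this way, and Mrpl3, Mrps2 and Mrps25 were separated without passing the test.

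The array means of the members overlapped between the genotypes. The mean over the 71 members was 4.29, 3.92, 4.18 and 4.11 in WT 1 to 4 and 4.58, 4.21, 4.57 and 4.50 in KO 1 to 4. The array KO 2 was below WT 1. KO 2 was the lowest KO array for 56 of 71 members and the highest for none, and WT 2 was the lowest WT array for 37. Between arrays of the same number, KO was above WT by 0.29, 0.29, 0.39 and 0.39 log2 units.

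**Figure D2:**
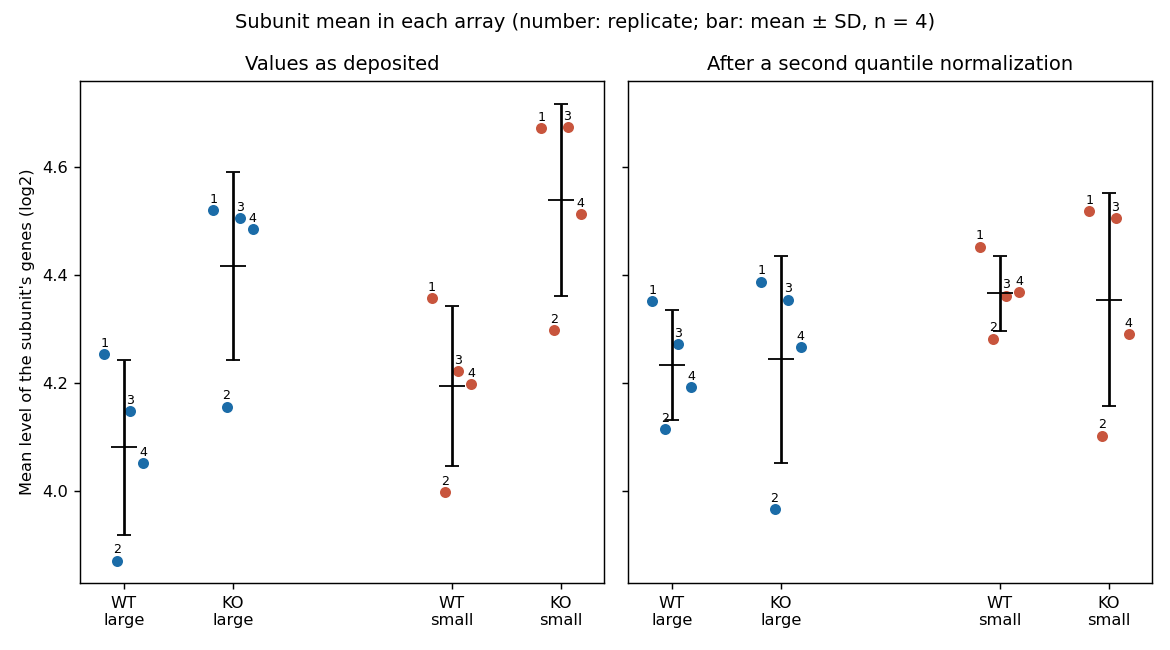
Mean log2 level of the large and small subunit genes in each array (points, numbered by replicate; bars are mean ± SD, n = 4), as deposited on the left and after a second quantile normalization on the right. In the deposited values array 2 is the lowest of both groups for both subunits; after the second normalization the WT and KO means of each subunit lie within 0.02 log2 units.

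The large and small subunit genes had close medians, 0.37 and 0.36 log2 units as deposited, and the difference between them was not tested. Of the large subunit genes 12 of 43 were called higher (27.9%, against 29.6% of other genes in the same bands) and 1 lower, and of the small subunit genes 11 of 28 were called higher (39.3%, against 30.8%) and none lower, where 2 small subunit genes were lower at an unadjusted p under 0.05. Changes were positive for 36 of 43 and 23 of 28. The large subunit mean was 4.25, 3.87, 4.15 and 4.05 in WT and 4.52, 4.16, 4.51 and 4.49 in KO. The small subunit mean was 4.36, 4.0, 4.22 and 4.20 in WT and 4.67, 4.30, 4.67 and 4.51 in KO. Between same-numbered arrays KO was above WT by 0.27, 0.28, 0.36 and 0.43 in the large subunit and by 0.31, 0.30, 0.45 and 0.31 in the small. Moving Mrps30 and Mrps18a, which sit in the large subunit in spite of their symbols, leaving out Mrps36, and adding the measured ribosomal proteins of other names gave 13 large and 11 small subunit genes called higher, with medians of 0.36 and 0.41.

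The count of called members depended on single arrays, and the share called over all genes moved as well. Leaving out WT 1 gave 25 and leaving out KO 2 gave 22. The count was 9 with WT 2 left out, 11 with WT 3, 8 with WT 4, 8 with KO 1, 7 with KO 3 and 5 with KO 4. Over all genes, 14.6% were called higher in the full fit, 16.7% without WT 1 and 11.1% without KO 2. The share was 11.6% without WT 2, 10.7% without WT 3 and 11.0% without WT 4. It was 12.2% without KO 1, 9.75% without KO 3 and 8.03% without KO 4. All 23 kept a positive change in each of these fits, and Mrpl32, Mrpl10, Mrps18b and Mrps27 were called in all 8. Of the 23, 16 had an adjusted p between 0.025 and 0.05. With 3 males a group none was called in limma, where 3.47% of all genes were called higher, and 24 members were higher at an unadjusted p under 0.05. With the replicate number as a block, a pairing that the labels do not state, 28 were called higher (39.4%). The share was 16.7% of all genes and 34.3% of other genes weighted to the members' bands. The 28 were the 23 and also Mrpl11 (adjusted p = 0.0142), Mrpl21 (0.0228), Mrpl52 (0.0248), Mrps25 (0.0394) and Mrpl38 (0.0482), all from limma.

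**Figure D3:**
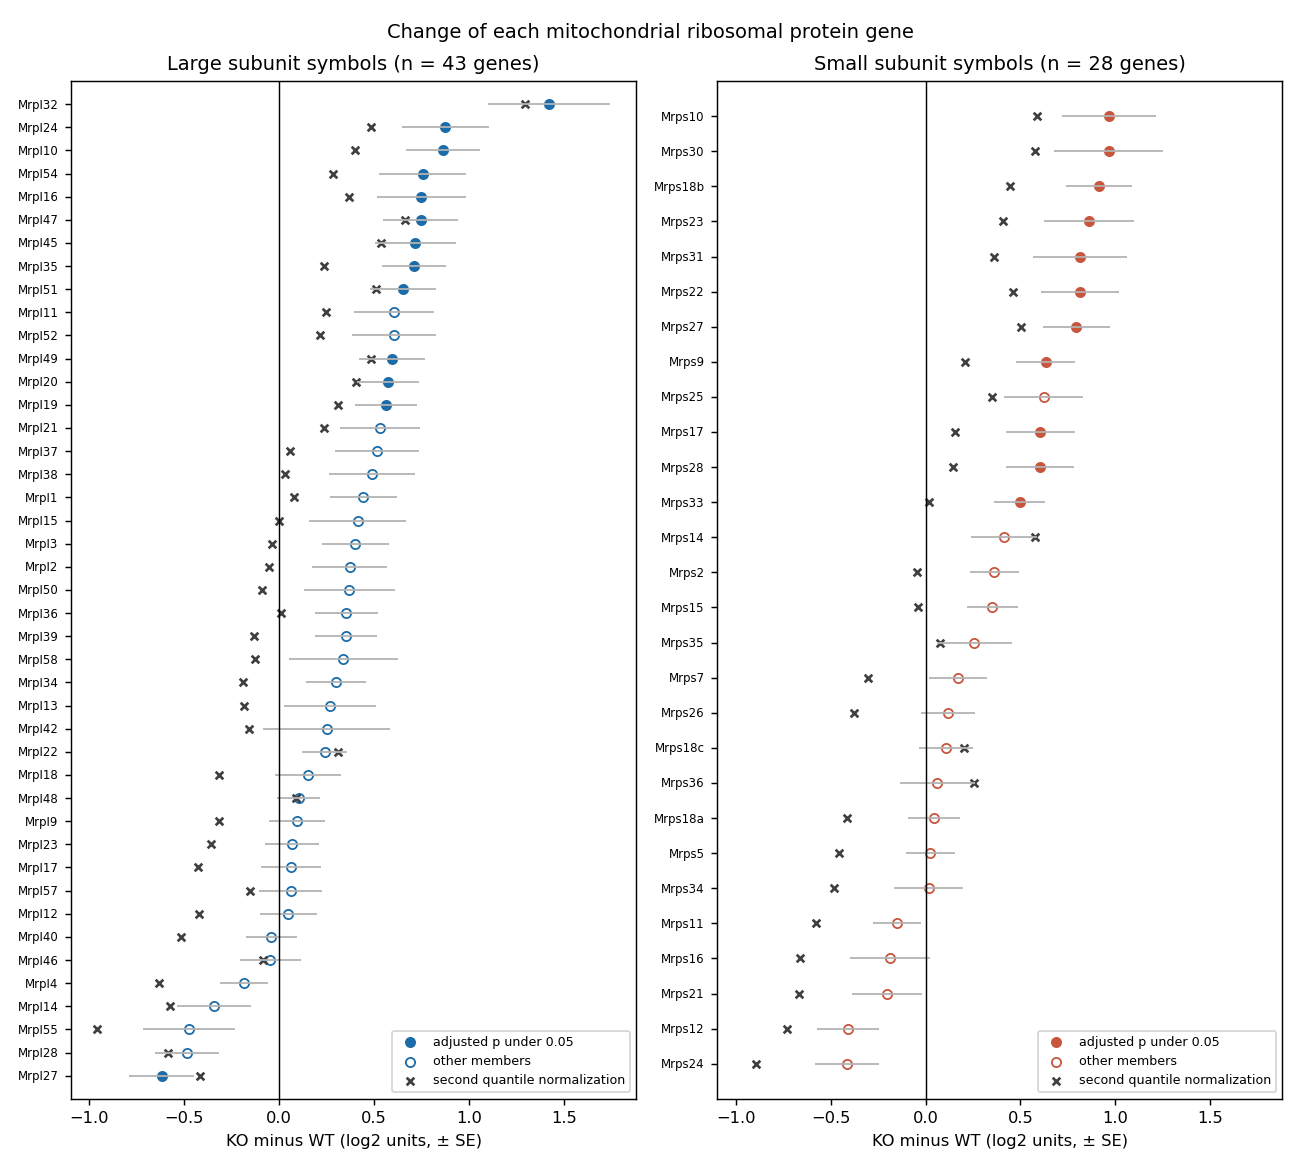
Change of each of the 71 members (KO minus WT, log2 units, ± SE from limma), large subunit symbols on the left and small on the right, in order of change. Filled points have an adjusted p under 0.05 (24 members), and crosses mark the same change after a second quantile normalization, which lie to the left of nearly all points above 0.

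The largest change was that of Mrpl32, a zinc-binding protein of the large subunit that is cut by the mitochondrial m-AAA protease before it joins the ribosome at a late step. Its signal was 3.15, 2.81, 1.77 and 1.77 in WT and 3.97, 3.54, 3.51 and 4.18 in KO. Every KO array was above every WT array, and the WT arrays fell into a higher and a lower pair. The change was 1.42 ± 0.32 (SE) log2 units, or 2.68-fold (limma adjusted p = 0.0152). The subunits of the protease that cuts it did not pass the test: Afg3l2 changed by 0.27 ± 0.18 (limma adjusted p = 0.269) and Spg7 by 0.26 ± 0.17 (adjusted p = 0.276).

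Because Mrpl32 rose furthest, Mrps18b had the smallest p-value and Mrpl27 alone was lower, the 250 bases before the start of each are shown, from RefSeq for GRCm38.p6, 5′ to 3′ on the gene's strand. Capitals mark the letters of the motifs searched, described further on. The windows are chr13:14613038-14613287 on the minus strand for Mrpl32, chr17:35916441-35916690 on the minus strand for Mrps18b and chr11:94653541-94653790 on the plus strand for Mrpl27.
Mrpl32: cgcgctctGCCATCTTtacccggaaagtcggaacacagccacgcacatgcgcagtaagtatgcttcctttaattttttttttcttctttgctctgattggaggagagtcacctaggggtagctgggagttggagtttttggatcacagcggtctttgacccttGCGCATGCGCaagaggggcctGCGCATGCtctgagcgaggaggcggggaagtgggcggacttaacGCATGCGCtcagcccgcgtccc
Mrps18b: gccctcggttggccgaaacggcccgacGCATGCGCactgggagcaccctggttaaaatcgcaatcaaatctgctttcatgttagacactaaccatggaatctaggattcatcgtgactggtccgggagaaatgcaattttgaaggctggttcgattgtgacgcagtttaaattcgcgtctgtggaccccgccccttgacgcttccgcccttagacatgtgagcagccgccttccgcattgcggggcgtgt
Mrpl27: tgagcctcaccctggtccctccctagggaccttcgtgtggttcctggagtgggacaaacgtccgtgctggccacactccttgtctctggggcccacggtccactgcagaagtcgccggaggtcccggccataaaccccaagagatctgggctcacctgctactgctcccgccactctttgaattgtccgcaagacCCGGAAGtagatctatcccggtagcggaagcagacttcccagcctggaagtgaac
The Mrpl32 window holds the NRF1 core at 4 positions, -22, -66, -85 and -87 from the start, where the last 2 overlap, and a YY1 core at -242. The Mrps18b window holds 1 NRF1 core, at -223, and the Mrpl27 window 1 ETS core, at -55.

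Of 5 genes taken here for the mouth of the tunnel through which the new chain leaves, 3 were called higher. Of other genes in the same bands 24.3% were. Mrpl24 was 6.43, 5.86, 5.86 and 6.38 in WT and 6.96, 6.48, 7.52 and 7.08 in KO, a change of 0.87 ± 0.23 (limma adjusted p = 0.0253). Its groups did not overlap, with KO 2 above WT 1 by the smallest margin. Mrpl47 was 3.07, 2.10, 2.82 and 2.70 in WT and 3.35, 3.24, 3.54 and 3.54 in KO, a change of 0.74 ± 0.20 (adjusted p = 0.0263), also without overlap. Mrpl45, which ties the ribosome to the inner membrane where its products are inserted, was 3.69, 2.54, 2.94 and 3.07 in WT and 3.86, 3.66, 3.72 and 3.85 in KO. Its change was 0.72 ± 0.21 (adjusted p = 0.0397), and WT 1 lay within the KO range. Mrpl22 and Mrpl23, at the same rim, changed by 0.24 and 0.07 and did not pass the test. This set, put together after the values were seen, had a median of 0.72. None of its genes was called under a second quantile normalization or cyclic loess, or with KO 3 or KO 4 left out.

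Of the stalk, where translation factors dock, 1 of 3 genes was called higher, where the bands had 37.7%, and 2 were with the replicate block. Its base protein Mrpl10 was 5.45, 4.58, 5.04 and 5.14 in WT and 6.07, 5.65, 6.16 and 5.76 in KO, without overlap, and rose by 0.86 ± 0.20 (limma adjusted p = 0.0154). A dimmer row of Mrpl10 went the other way, from a mean of 2.11 in WT to 1.73 in KO. Mrpl11 was 4.0, 3.27, 3.82 and 3.70 in WT and 4.69, 3.81, 4.32 and 4.40 in KO, a change of 0.61 ± 0.21 that missed the threshold without the block (adjusted p = 0.0657). Mrpl12, which also binds the mitochondrial RNA polymerase, was 4.44, 4.44, 4.66 and 4.60 in WT and 4.51, 4.29, 4.95 and 4.58 in KO. Its change was 0.05 ± 0.15 (adjusted p = 0.83), and its groups overlapped fully. A dimmer row of Mrpl12 changed by -0.44.

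Of 5 genes grouped here with the peptidyl transferase centre, where the amino acids are joined, 1 was called higher and 1 lower. The bands had 29.5% higher and 4.29% lower. Mrpl16 was 4.12, 3.39, 4.31 and 3.37 in WT and 4.60, 4.24, 4.83 and 4.50 in KO, a change of 0.75 ± 0.23 (limma adjusted p = 0.0473). KO 2 lay below WT 3. Mrpl27 was 1.49, 2.19, 1.82 and 2.03 in WT and 1.27, 1.34, 0.98 and 1.45 in KO, a change of -0.62 ± 0.17 log2 units that was called lower (adjusted p = 0.0310). Its signal is the lowest among the members, its KO arrays all lie below its WT arrays, and the call was kept in 1 of the 8 fits that leave out an array. Mrpl2, Mrpl3 and Mrpl4 changed by 0.37, 0.40 and -0.19 without passing the test.

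The central protuberance, which contacts the small subunit, held no called gene among 6, where the bands had 27.2% higher, and none at an unadjusted p under 0.05 in limma. With the replicate block 1 was called, Mrpl38. The changes were 0.49 for Mrpl38, 0.15 for Mrpl18, 0.10 for Mrpl48, -0.04 for Mrpl40 and -0.05 for Mrpl46. Mrpl58, a peptidyl-tRNA hydrolase that became part of the ribosome, was 5.74, 4.56, 5.50 and 5.55 in WT and 5.98, 5.08, 6.07 and 5.59 in KO. Its change was 0.34 ± 0.29 (adjusted p = 0.393), and both groups were lowest in array 2.

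Further large subunit genes rose. Mrpl54 was 5.49, 5.25, 5.48 and 5.04 in WT and 6.44, 5.37, 6.38 and 6.08 in KO, a change of 0.76 ± 0.23 (limma adjusted p = 0.0427), with KO 2 inside the WT range. Mrpl35 was 5.09, 4.40, 5.03 and 4.87 in WT and 5.68, 5.32, 5.59 and 5.63 in KO, a change of 0.71 ± 0.17 (adjusted p = 0.0184), with no overlap. Mrpl51, Mrpl49, Mrpl20 and Mrpl19 rose by 0.65, 0.59, 0.57 and 0.56, with adjusted p between 0.0271 and 0.0363. Mrpl52 had the highest mean signal of the large subunit rows. It was 6.82, 5.88, 6.20 and 6.23 in WT and 7.08, 6.41, 6.95 and 7.11 in KO, a change of 0.60 ± 0.22 (adjusted p = 0.0764).

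The other large subunit genes did not pass the test. Their changes were 0.53 for Mrpl21, 0.52 for Mrpl37, 0.44 for Mrpl1, 0.41 for Mrpl15, 0.37 for Mrpl50, 0.35 for Mrpl36, 0.35 for Mrpl39 and 0.30 for Mrpl34. Smaller changes were 0.27 for Mrpl13, 0.25 for Mrpl42, 0.09 for Mrpl9, 0.06 for Mrpl17 and 0.06 for Mrpl57. Negative changes were -0.49 for Mrpl28, -0.48 for Mrpl55 and -0.34 for Mrpl14, and Mrpl28 was the nearest of these to the threshold (limma adjusted p = 0.0670). A dimmer row of Mrpl36 changed by -0.11.

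Among small subunit symbols, Mrps18b had the smallest adjusted p of all members. It belongs with Mrps18a and Mrps18c to a family of 3 related proteins that descend from 1 bacterial protein. Mrps18b was 5.13, 4.91, 5.34 and 5.37 in WT and 6.36, 5.69, 6.27 and 6.08 in KO, without overlap. It rose by 0.91 ± 0.17 (limma adjusted p = 0.00784), and its other row, at 5.14 in WT and 5.90 in KO on average, changed by 0.76. Mrps18a was 4.39, 4.29, 4.67 and 4.70 in WT and 4.45, 4.46, 4.77 and 4.54 in KO, a change of 0.04 ± 0.14 (adjusted p = 0.824). Mrps18c was 2.52, 2.54, 2.36 and 2.50 in WT and 2.57, 2.46, 2.95 and 2.37 in KO, a change of 0.11 ± 0.14 (adjusted p = 0.584). The groups of Mrps18a and Mrps18c overlapped, and the difference between the 3 changes was not tested.

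Of the 11 small subunit symbols called higher, 5 encode further small subunit proteins that are classed as mitochondria-specific, Mrps27, Mrps22, Mrps23, Mrps31 and Mrps33. Mrps27, an RNA-binding pentatricopeptide repeat protein, was 3.23, 2.81, 3.56 and 3.58 in WT and 4.27, 4.04, 4.07 and 3.99 in KO, without overlap. It rose by 0.79 ± 0.18 (limma adjusted p = 0.0147). Mrps22 was 4.13, 3.32, 3.57 and 3.29 in WT and 4.72, 4.13, 4.34 and 4.38 in KO, a change of 0.81 ± 0.20 (adjusted p = 0.0221). The lowest KO array of Mrps22 was just above WT 1. Mrps23 was 5.88, 5.02, 5.26 and 5.32 in WT and 6.53, 5.62, 6.48 and 6.27 in KO, a change of 0.86 ± 0.24 (adjusted p = 0.0306). Mrps31 was 4.73, 3.88, 3.72 and 4.65 in WT and 5.39, 4.73, 5.05 and 5.08 in KO, a change of 0.82 ± 0.25 (adjusted p = 0.0427). In both of these KO 2 was not above WT 1. Mrps33 rose by 0.50.

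Mrps30, which sits in the large subunit in structures of the ribosome, was 4.55, 3.19, 4.27 and 3.88 in WT and 5.21, 4.44, 5.23 and 4.86 in KO. It rose by 0.96 ± 0.29 (limma adjusted p = 0.0400), and KO 2 lay below WT 1. Sorted by ancestry after the values were seen, 6 of 10 small subunit genes classed as mitochondria-specific were called higher, with a median of 0.71. Of 15 classed with a bacterial counterpart 4 were, with a median of 0.17. Mrps18b was counted among the 10 although it is related to a bacterial protein, and its uncalled relative Mrps18c among the 15, so the contrast depends in part on this placement. The same bands of other genes had 32.3% and 31.1% called higher. In the large subunit the counts were 5 of 17 and 8 of 28, with medians of 0.37 and 0.36. Other genes in those bands had 30.3% and 29.7% called higher. The difference by ancestry was not tested.

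Among small subunit genes with bacterial counterparts, Mrps10 changed most. It was 4.20, 3.16, 4.33 and 3.74 in WT and 5.14, 4.55, 4.87 and 4.74 in KO, without overlap, and rose by 0.97 ± 0.25 (limma adjusted p = 0.0242). Mrps9 was 4.12, 3.65, 3.69 and 4.21 in WT and 4.57, 4.46, 4.71 and 4.46 in KO, a change of 0.63 ± 0.16 (adjusted p = 0.0206), and Mrps17 and Mrps28 rose by 0.60 each. A dimmer row of Mrps17 did not rise, with a mean of 2.34 in WT and 2.34 in KO. Mrps12, a protein of the decoding centre, was 3.64, 4.08, 3.94 and 3.70 in WT and 3.66, 3.06, 3.58 and 3.44 in KO, a change of -0.41 ± 0.16 (adjusted p = 0.0966). Mrps15 had the highest mean signal of all members. It was 6.62, 6.20, 6.44 and 6.40 in WT and 6.97, 6.75, 6.59 and 6.75 in KO, a change of 0.35 ± 0.13 (adjusted p = 0.0826), with KO 3 inside the WT range.

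Mrps36 had the lowest signal of the small subunit rows. It is now known as a subunit of the alpha-ketoglutarate dehydrogenase complex more than as a ribosomal protein. It was 1.93, 1.76, 1.32 and 1.62 in WT and 1.46, 1.64, 2.25 and 1.53 in KO, a change of 0.06 ± 0.20 (limma adjusted p = 0.828). The other uncalled small subunit genes changed by 0.62 for Mrps25, 0.41 for Mrps14, 0.36 for Mrps2, 0.26 for Mrps35, 0.17 for Mrps7, 0.12 for Mrps26, 0.03 for Mrps5 and 0.02 for Mrps34. Negative changes were -0.41 for Mrps24, -0.20 for Mrps21, -0.19 for Mrps16 and -0.15 for Mrps11. Dimmer rows of Mrps16 and Mrps5 went the other way, with changes of 0.52 and -0.30.

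**Figure D4:**
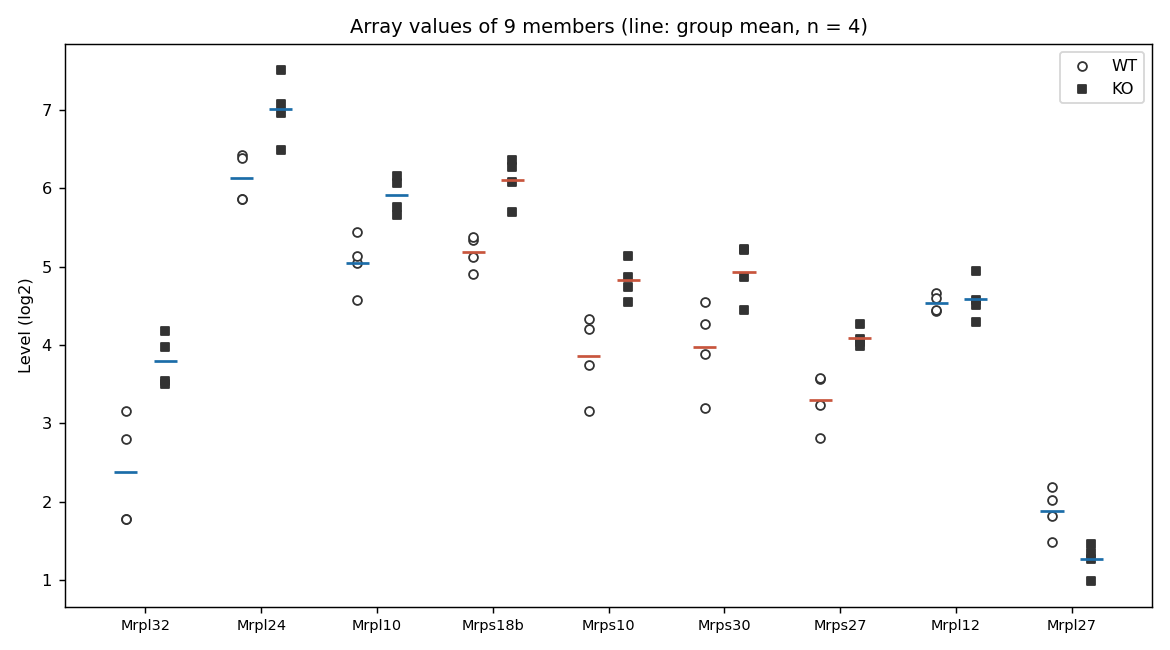
Log2 level of 9 members in each array (open circles WT, filled squares KO, lines group means, n = 4 each). The KO squares of Mrpl32, Mrpl24, Mrpl10, Mrps18b, Mrps10 and Mrps27 all lie above the WT circles, those of Mrps30 and Mrpl12 overlap them, and those of Mrpl27 all lie below.

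The scale of the arrays bore on nearly all of these calls. The spread of values over genes was wider in KO, with an interquartile range of 2.88 to 3.03 log2 units, than in WT, with 2.11 to 2.48. When the table of named genes was brought to 1 common distribution by a second quantile normalization, 1 member was called higher, Mrpl32 (1.30 log2 units, limma adjusted p = 0.0467), and 5 were called lower. Over all genes 4.65% were then called higher and 5.66% lower, and 7.10% and 9.95% of the other genes weighted to the members' bands. Cyclic loess, which removes signal-dependent trends between arrays, gave the same 1 and 5, with Mrpl32 at 1.35 (adjusted p = 0.0283), while 6.11% and 5.69% of all genes were called. The 5 lower members were Mrps24 (-0.89 after the quantile step), Mrps12 (-0.73), Mrps21 (-0.67), Mrpl4 (-0.64) and Mrps11 (-0.58). The median change of members was 0.02 and 0.08 under these scalings, with the large subunit at 0.00043 and 0.016 and the small at 0.11 and 0.15. The 23 genes called higher kept a positive change under both.

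The rest of the mitochondrial translation apparatus was taken from lists chosen with earlier results of these data known. Of 5 ribosomal proteins under other symbols 3 were measured. Dap3, a small subunit protein, rose by 0.53 ± 0.16 (limma adjusted p = 0.0453, or 0.0533 with the replicate block, and kept in 3 of the 8 fits without 1 array), and Ptcd3 and Gadd45gip1 changed by 0.92 ± 0.45 and 0.22 ± 0.15 without passing. Of 30 measured assembly and rRNA maturation genes 6 were called higher in limma and none lower, nor was any lower at an unadjusted p under 0.05, with a median of 0.27. The list's share called higher, 6 of 30, stood beside 24.05% of genes in the same signal bands. Mterf3, which acts in ribosome biogenesis, rose by 1.20 ± 0.26 (adjusted p = 0.0124), and Lrpprc, which stabilises mitochondrial messages, by 1.07 ± 0.21 (adjusted p = 0.00948). Rcc1l rose by 0.80 ± 0.21 and Mtg1, a GTPase of large subunit assembly, by 0.67 ± 0.18. Oxa1l, the insertase that takes up the new chains, and Ddx28 were also called. The count was 2 without WT 2, KO 3 or KO 4 and 3 without WT 3, WT 4 or KO 1. With the replicate block 7 were called: Gtpbp10 (0.81, adjusted p = 0.00775) and Tfb1m (1.02, adjusted p = 0.0249) were gained and Ddx28 (adjusted p = 0.0525) was lost. After the second quantile normalization none was called higher, with cyclic loess Mterf3, Lrpprc and Nsun4 were, and under both Noa1 was called lower (-0.65 and -0.61).

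Of 13 measured translation factors 4 were called higher in limma and none lower, nor was any lower at an unadjusted p under 0.05, with a median of 0.37. The list's 30.8% called higher stood beside 25.5% of genes in the same bands. Mtfmt, which makes the formylated initiator tRNA, rose by 0.72 ± 0.13 (limma adjusted p = 0.00679), and Tufm, the elongation factor that brings in charged tRNA, by 0.60 ± 0.15 (adjusted p = 0.0242). Guf1 rose by 0.88 ± 0.24 (adjusted p = 0.0298) and Mtif3, an initiation factor, by 0.58 ± 0.18 (adjusted p = 0.0448). With the replicate block Mtif3 missed the threshold (adjusted p = 0.0546), which left 3. The count was 7 without WT 1, 2 without WT 4, KO 2 or KO 3, and 1 without WT 2, WT 3, KO 1 or KO 4. It was 0 after the second quantile normalization and 1 after cyclic loess.

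Of 10 genes of mitochondrial transcription and genome upkeep 4 were called higher (40.0%, where genes in the same bands had 21.3%), with a median of 0.40. Lonp1, the matrix protease that also binds mitochondrial DNA, was 5.02, 4.36, 5.09 and 4.84 in WT and 7.28, 6.96, 7.12 and 6.82 in KO, a change of 2.22 ± 0.18 (limma adjusted p = 0.000502). Ssbp1, which coats single-stranded mitochondrial DNA, rose by 1.43 ± 0.26 (adjusted p = 0.00690). Tfam and Tfb2m, which start transcription of the mitochondrial genome, rose by 1.15 ± 0.28 (adjusted p = 0.0210) and 1.03 ± 0.27 (adjusted p = 0.0271). After the second quantile normalization Lonp1 (1.80) and Ssbp1 (1.01) were still called, and under cyclic loess Lonp1 (1.78), Ssbp1 (0.996), Tefm (0.61) and Mterf1a (0.43) were. Tfam and Tfb2m were called under neither scaling. With the replicate block Tefm was also called (0.41, adjusted p = 0.0497). The count was 2 without WT 3 or without KO 4.

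Of 12 regulators of nuclear genes for mitochondria 3 were called higher and 1 lower, or 25.0% and 8.33%, where genes in the same bands had 27.4% and 6.22%. Nrf1, nuclear respiratory factor 1, was 3.15, 3.14, 3.59 and 3.02 in WT and 3.95, 4.10, 3.93 and 3.97 in KO, a change of 0.76 ± 0.14 (limma adjusted p = 0.00724). Gabpa, the DNA-binding part of an ETS factor that acts on many of the same genes, was 5.63, 5.19, 5.30 and 5.10 in WT and 6.01, 5.82, 6.01 and 6.00 in KO, a change of 0.65 ± 0.14 (adjusted p = 0.0117). Ppargc1a, a coactivator of mitochondrial biogenesis, was 3.41, 2.90, 2.72 and 2.84 in WT and 2.52, 2.51, 2.43 and 2.44 in KO. Its change was -0.49 ± 0.15 log2 units, called lower (adjusted p = 0.0477), and the call was kept without WT 1 or WT 3 and lost without any 1 of the other 6 arrays. It was also lost with sex as a term, with males only, under every rescaling tried (median centring, second quantile normalization, cyclic loess) and with trended and robust variances. Ddit3, the stress-induced transcription factor CHOP, was the third gene called higher, with 4.19, 2.91, 3.61 and 4.20 in WT and 8.93, 8.05, 8.52 and 7.96 in KO. Its change of 4.64 ± 0.31 (adjusted p = 0.000298) was the largest rise of all genes tested. Nrf1 was called under cyclic loess and not after the second quantile normalization (adjusted p = 0.0749), and Gabpa under neither. Myc, at -0.26 as deposited, was called lower under both of these scalings (-0.68 in each).

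Promoter letters were read for the 62 members with a RefSeq window, in the 250 bases before the start, on both strands. The NRF1 core GCATGCGC was in 7 of 62 members (11.3%), against 3.44% of the 16990 array genes with a window and 2.56% of all 27025 genes with one. The ETS and GABP core CCGGAAG was in 16 (25.8%), against 10.01% of array genes and 7.83% of all genes. The YY1 core AAGATGGC was in 4 (6.45%, against 1.84% and 1.83%) and the E-box CACGTG in 5 (8.06%, against 7.83% and 6.86%). The C/EBP-ATF element TGATGCAA was in none, against 0.800% and 0.918%. None of these motifs contains another. The members with an NRF1 core were Mrpl9, Mrpl10, Mrpl17, Mrpl22, Mrpl32, Mrpl39 and Mrps18b. The core stood in 3 of the 20 members called higher that have a window and in 4 of the other 42, and the ETS core in 3 and 13. The members' windows also had a higher GC content, with a median of 58.4% against 52.4%. A match is a description of letters and was not tested as a site.

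In the values as deposited, genes of the cytosolic ribosome and of the respiratory chain were called higher less often. Both lists were taken by symbol, so they also hold variant family members such as Rpl10l and Rpl3l, or Cox6b2 and Cox7b2. Of 67 cytosolic ribosomal protein genes 1 was called higher and 5 lower, with a median of 0.00 log2 units, where 21.5% of other genes in their bands were called higher. Of 80 nuclear-encoded genes of the respiratory chain and ATP synthase 3 were called higher and 1 lower, with a median of 0.06, where the bands had 29.3%. With the replicate block the counts were 2 higher and 7 lower for the cytosolic list and 6 and 2 for the respiratory chain. Over all genes 16.7% were called higher and 6.08% lower with the block. After the second quantile normalization the medians were -0.23 and -0.27, against 0.02 for the mitochondrial ribosome. The cytosolic list then had 1 called higher and 6 lower (3 and 9 with cyclic loess). The respiratory chain had none higher and 17 lower (none and 19), with 3 and 6 higher at an unadjusted p under 0.05 in limma. Over all genes 4.65% were called higher and 5.66% lower after the quantile step, and 6.11% and 5.69% with cyclic loess. The differences between families were not tested.

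**Figure D5:**
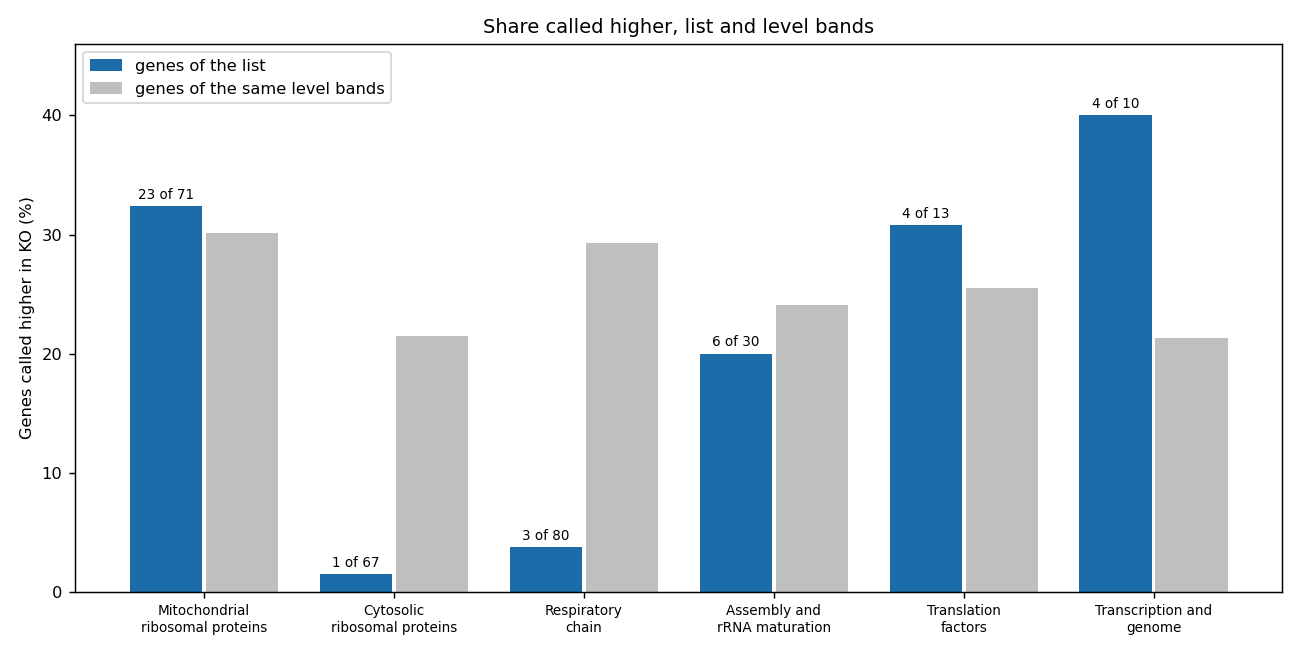
Percent of genes called higher in KO, in the values as deposited, in each list (blue bars, with counts) and in the genes of the same signal bands outside the mitochondrial ribosomal proteins (grey bars), on an axis that starts at 0. Mitochondrial ribosomal proteins, at 23 of 71, lie near their band share, and cytosolic ribosomal proteins, at 1 of 67, and the respiratory chain, at 3 of 80, lie below theirs.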

How the data were processed

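Total RNA of mouse pancreas was hybridised to 8 whole-transcript arrays, 4 WT and 4 KO. The deposited values are log2 expression values per probe set, and the submitters' processing notes name RMA, oligo and limma without roles. The log base is read from the range of the values and is not stated.

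Rows were named from the platform's annotation: 23521 of 41345 carried 1 symbol, 1814 several and 16010 none. The row of highest mean was kept for each of 22180 genes. KO was compared with WT in limma 3.58.1 (R 4.3.3, lmFit and eBayes), adjusted over all genes by Benjamini-Hochberg at 0.05. The same fit was also run on simulated data with equal noise in both genotypes. Those data lack the wider spread of the KO arrays, so they do not bear on it. The number of arrays limits the precision: the members' SE ran from 0.11 to 0.33 log2 units. With 4 against 4, no exact permutation p falls below 0.0286.

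Deviations of same-numbered arrays correlated over genes at 0.26, 0.17, 0.11 and 0.14. Pairs of unlike number ran from -0.21 to 0.12, and WT 4 with KO 2, at 0.12, was above the 0.11 of number 3. The labels state no pairing, so the replicate block is an assumption, given as an alternative where it changes a call. Bands of 1 log2 unit of mean signal served as background. Full values were given for the 8 largest rises and 4 largest falls called in each subunit, for members of known role and for the brightest and dimmest row of each subunit; of other lists, for up to 4 called genes. The members and lists were chosen with earlier results of these data known. Alternatives were other scalings, models, filters and row choices, and leaving out each array.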

Additional observations from a re-analysis of the deposited data

Results flagged for a closer look

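In groups of 4 arrays, 184 groups of values were tested for 1 array far from the other 3 by Dixon's criterion, and 11 stood apart; chance flags about 1 in 20. Among members these were Mrpl3 in KO 1 (4.92, others 4.53 to 4.57), Mrpl4 in WT 4 (4.29, others 4.56 to 4.57), Mrpl9 in WT 4 (3.70, others 4.07 to 4.15), Mrpl23 in WT 2 (4.29, others 3.98 to 4.01), Mrpl42 in WT 2 (3.47, others 4.96 to 5.16) and Mrps17 in WT 1 (4.66, others 3.96 to 4.05). The large subunit mean stood apart in KO 2 (4.16, others 4.49 to 4.52). Among the other genes described, Lrpprc stood apart in WT 2 (3.51, others 4.37 to 4.47), Tufm in KO 1 (6.16, others 5.74 to 5.77), Guf1 in WT 1 (4.07, others 3.02 to 3.09) and Gabpa in KO 2 (5.82, others 6.00 to 6.01). Without WT 2 the change of Mrpl42 went from 0.25 to -0.15 log2 units. The genotype difference was also compared between the 3 male pairs and the 1 female pair with a limma interaction term: no member passed (0 also at an unadjusted p under 0.05, and 1 gene over all genes after adjustment).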

How the results depend on the processing

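The count of members called higher was 28 with the replicate block and between 21 and 27 with median centring, trended and robust variances, array weights or the mean of a gene's rows. It was 15 with sex as a term, where 13.2% of all genes were called higher. It was 0 with males only and 1 under a second quantile normalization or cyclic loess. When only genes with a mean of at least 4 in either group were tested, it was 17 of 49 members. Of all genes in that fit 42.4% were called higher. Leaving out 1 array gave 5 to 25, where the share of all genes called higher ran from 8.03% to 16.7%. Members called lower numbered 5 under each of these 2 scalings, 2 with array weights, 0 with males only or with genes of a mean of at least 4, and 0 to 3 without 1 array. For the large subunit, higher calls numbered 0 with males only, 1 under each scaling and 2 to 13 without 1 array. With the filter, which tests fewer genes, higher calls numbered 6 of 27. Lower calls of the large subunit numbered 0 with males only or the filter and 0 to 3 without 1 array. For the small subunit, higher calls numbered 7 with sex, 0 with males only and 0 under each scaling, and 3 to 12 without 1 array, and lower calls 4 under each scaling, 1 with weights and 0 to 1 without 1 array. At an unadjusted p under 0.05, limma had 24 members higher with males only. The large subunit median was 0.00043 and 0.016 and the small 0.11 and 0.15 under the quantile step and loess. The large minus small difference of medians, 0.01 as reported, was -0.11 and -0.14 under these, -0.061 with the filter, -0.054 by structure and -0.021 to 0.096 without 1 array. Males only and the leave-out fits use fewer samples; for the other shifts the cause was not tested. No called member changed direction in any setting run.

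The changes of uncalled members that crossed 0 were as follows. Under the second quantile normalization they were -0.056 for Mrpl2, -0.036 for Mrpl3, -0.32 for Mrpl9, -0.42 for Mrpl12, -0.19 for Mrpl13, -0.43 for Mrpl17, -0.32 for Mrpl18, -0.36 for Mrpl23, -0.19 for Mrpl34, -0.13 for Mrpl39, -0.16 for Mrpl42, -0.092 for Mrpl50, -0.16 for Mrpl57, -0.13 for Mrpl58, -0.045 for Mrps2, -0.46 for Mrps5, -0.30 for Mrps7, -0.039 for Mrps15, -0.41 for Mrps18a, -0.38 for Mrps26 and -0.48 for Mrps34. Under cyclic loess they were -0.0077 for Mrpl2, -0.25 for Mrpl9, -0.36 for Mrpl12, -0.15 for Mrpl13, -0.38 for Mrpl17, -0.29 for Mrpl18, -0.28 for Mrpl23, -0.14 for Mrpl34, -0.093 for Mrpl39, -0.18 for Mrpl42, -0.076 for Mrpl50, -0.086 for Mrpl57, -0.11 for Mrpl58, -0.42 for Mrps5, -0.27 for Mrps7, -0.055 for Mrps15, -0.36 for Mrps18a, -0.32 for Mrps26 and -0.42 for Mrps34. With males only they were -0.046 for Mrpl23, -0.14 for Mrpl57, -0.036 for Mrps5 and -0.020 for Mrps34. With the mean of a gene's rows they were -0.20 for Mrpl12, -0.14 for Mrps5 and 0.17 for Mrps16, with median centring 0.047 for Mrpl40 and 0.042 for Mrpl46, and with array weights -0.0080 for Mrps18a. Leaving out 1 array, the ranges were -0.075 to 0.14 for Mrpl12, -0.034 to 0.19 for Mrpl17, -0.016 to 0.14 for Mrpl23, -0.12 to 0.021 for Mrpl40, -0.15 to 0.42 for Mrpl42, -0.14 to 0.071 for Mrpl46, -0.045 to 0.18 for Mrpl57, -0.0083 to 0.14 for Mrpl9, -0.029 to 0.11 for Mrps18a, -0.013 to 0.18 for Mrps18c, -0.12 to 0.14 for Mrps34, -0.11 to 0.15 for Mrps36 and -0.039 to 0.089 for Mrps5.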
